A study of Homo sapiens with 22 samples.

Results

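The comparison described here sets 786-M1A cells that carried a non-targeting CRISPRi control against the same cell line with no such label. 786-M1A is a metastatic derivative of 786-O, a human clear cell renal carcinoma line, a relation known from earlier work and not given in the labels. The members were chosen by sample title and comprise 8 of the 22 libraries of the series: 6 libraries of the control, which the titles call SC, and 2 of 786-M1A. The 2 libraries of 786-O are used only to give the level of a gene in the parent line. All cells were grown in RPMI with 10% serum, and RNA was taken at 80% confluence. The label of the SC libraries reads non-targeting CRISPRi and gives neither the guide sequence nor the repressor, the vector, the selection or the time in culture, so none of these can be told apart from the guide. The labels also do not say whether replicates were separate cultures. A p-value here therefore covers the spread from library to library alone, and that spread may be technical. In the fit of all 6 SC libraries, the spread and the SE also take in the gap between 2 sets of SC libraries described below. That fit counts the 6 libraries as independent.

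CRISPR interference uses a Cas9 that binds DNA without cutting it, commonly joined to a KRAB domain that recruits TRIM28 and the enzymes that make repressive chromatin. A non-targeting guide matches no intended site in the genome and serves as the baseline for cells with targeting guides. Clear cell renal carcinoma commonly loses the VHL protein, which marks the hypoxia-inducible factors for destruction, and HIF-2alpha, the product of EPAS1, is then active at normal oxygen.

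The SC libraries formed 2 sets that no label names, replicates 1 and 2 and replicates 3 to 6. The first principal component of 14769 genes held 68.3% of the variance, with the 786-M1A libraries at −77.2 and −81.1, SC replicates 1 and 2 nearest to them and SC replicates 3 to 6 farthest away. Totals of expected counts, in units of 1000000 reads, were 52.7 and 49.3 in 786-M1A and 10.5 to 24.4 in SC. The chi-square of a pair of libraries, averaged over genes, was 61.1 to 87.0 when one came from each SC set, 2.24 to 8.94 within a set and 7.43 for the 786-M1A pair, so no pair agreed within sampling noise. The medians of the gene lists below are therefore also given for each set, and both contrasts share the 786-M1A libraries. The mean gene length, weighted by reads, fell in steps, from 3929 and 3982 bases in 786-M1A to 3646 and 3716 bases in SC replicates 1 and 2 and 3264 to 3395 bases in SC replicates 3 to 6. Reads in genes of small RNAs made up 0.0511% and 0.0457% in 786-M1A, 0.119% and 0.114% in SC replicates 1 and 2 and 0.338% to 0.483% in SC replicates 3 to 6. In 786-O the mean length was 3909 and 3915 bases close to the 786-M1A libraries, and the small RNA share was 0.0790% and 0.0958%, between those of 786-M1A and of SC replicates 1 and 2.

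**Figure D1:**
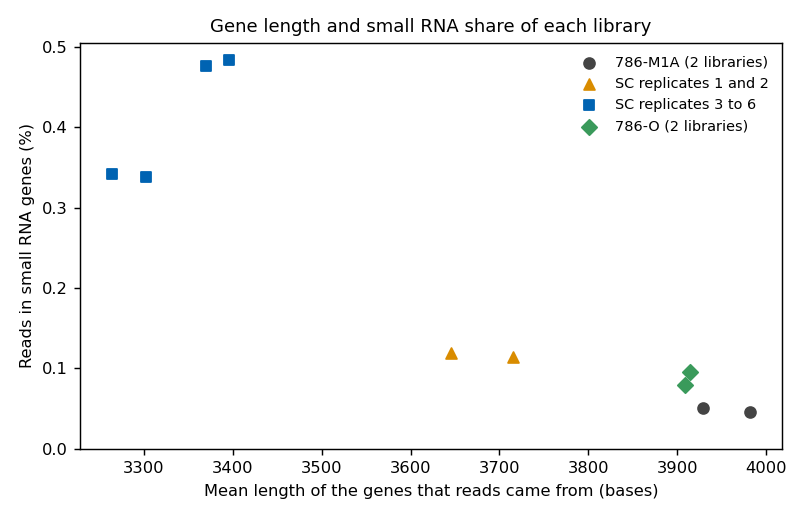
Mean gene length weighted by reads, in bases (horizontal axis), and percent of reads in small RNA genes (vertical axis), with 1 point per library. The 4 libraries SC 3 to 6 lie at 3264 to 3395 bases and 0.338% to 0.483%, apart from SC replicates 1 and 2 and from the 2 lines.

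The libraries expressed the markers of renal carcinoma cells. All 11 markers of the line passed the filter on low counts, 5 rose and 2 fell in SC, and their summed level was 10370 to 10430 CPM in 786-M1A, 9675 to 9917 CPM in SC replicates 1 and 2 and 7854 to 8865 CPM in SC replicates 3 to 6. CPM is the number of counts per 1000000 reads after edgeR's TMM scaling. The lymphocyte markers CD3E and MS4A1 and the endothelial cadherin CDH5 had no counts in any of the 8 libraries. The same held for the fibroblast markers DCN and PDGFRA and the glial factor OLIG2. Other members of these lists had counts, among them EMCN (19 in 786-M1A and 43 in SC), CD14 (11 and 43) and GFAP (24 and 21). The neural list summed to 200 to 212 CPM in 786-M1A and 208 to 261 CPM in SC, with 5 of 7 members tested. The hepatocyte list summed to 50.7 to 54.0 CPM and 51.3 to 72.5 CPM, with 1 of 6 tested. Of 9 leukocyte markers 3 could be tested, with 1 higher (LYZ) and 1 lower (CD68), and the summed level of the list fell from 84.2 and 85.1 CPM to between 32.8 and 34.4 CPM in SC replicates 3 to 6. Of 7 fibroblast markers 3 could be tested and all 3 rose, with sums of 5.42 to 5.76 CPM in 786-M1A and 9.32 to 11.8 CPM in SC. These calls rest on few reads, and their part in other results was not tested.

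Across all genes, the control cells differed widely from 786-M1A. The edgeR quasi-likelihood test called 7832 of 14769 genes at an adjusted p under 0.05, which is 53.0%, with 4100 higher (27.8%) and 3732 lower (25.3%) in SC. Most changes were small: the median absolute log2 fold change was 0.54, and 2953 of the called genes had an absolute log2 fold change of 1 or more. SC replicates 1 and 2 had 8227 calls against 786-M1A (55.7%), 4023 higher (27.2%) and 4204 lower (28.5%), with a median absolute change of 0.37. SC replicates 3 to 6 had 11339 calls (76.8%), 5927 higher (40.1%) and 5412 lower (36.6%), with a median absolute change of 0.64. The sets themselves differed at 8165 genes (55.3%), with 3956 higher (26.8%) and 4209 lower (28.5%) in SC replicates 3 to 6. No SC library overlapped a 786-M1A library at 9033 genes (61.2%). The count depended on the 786-M1A libraries, being 3038 when 786-M1A replicate 1 was left out and 1973 when 786-M1A replicate 2 was, fits in which the remaining 786-M1A library takes its spread from SC. On log2(TPM + 1) with limma, which also divides by gene length, 7496 genes were called, but only 33.2% of them were higher, against 52.3% in edgeR, and the median of all genes was −0.17.

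Gene length went with the direction of change. In the shortest quintile of genes, with a median length of 1182 bases, 44.1% were called higher and 5.15% lower in SC, and the median log2 fold change was 0.48. In the longest quintile, with a median of 6351 bases, 15.6% were called higher and 45.1% lower, and the median was −0.37. The quintiles between had medians of 0.21, 0.05 and −0.18. The slope was shallower in SC replicates 1 and 2, from 0.28 to −0.21, than in replicates 3 to 6, from 0.55 to −0.48. The mean gene length of the libraries moved the same way, and its part in single results was not tested. The list medians below are also given after an offset that removes the trend with length within each library. With that offset every quintile had a median of 0.02 to 0.05, and 7270 genes were called (49.2%), 3826 higher (25.9%) and 3444 lower (23.3%). Of 56 genes of small RNAs, with a median length of 132.5 bases, 21 rose and none fell by edgeR, against 27.8% and 25.3% of all genes. Their median was 1.14 (0.52 and 1.42 in the sets), and after the offset 9 rose, 5 fell and the median was 0.01. They lie at the short end of the trend that the offset removes, so a median close to that of all genes is largely built in. Zinc finger genes named ZNF, which were 473 of the genes tested, had 140 higher and 73 lower, against 27.8% and 25.3% of all genes. Without the offset, rises were thus near the share of all genes and falls were fewer. After the offset 161 rose and 53 fell, against 25.9% and 23.3% of all genes, so rises were then above that share too. The median was 0.18 (0.10 and 0.23 in the sets) and 0.26 after the offset.

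**Figure D2:**
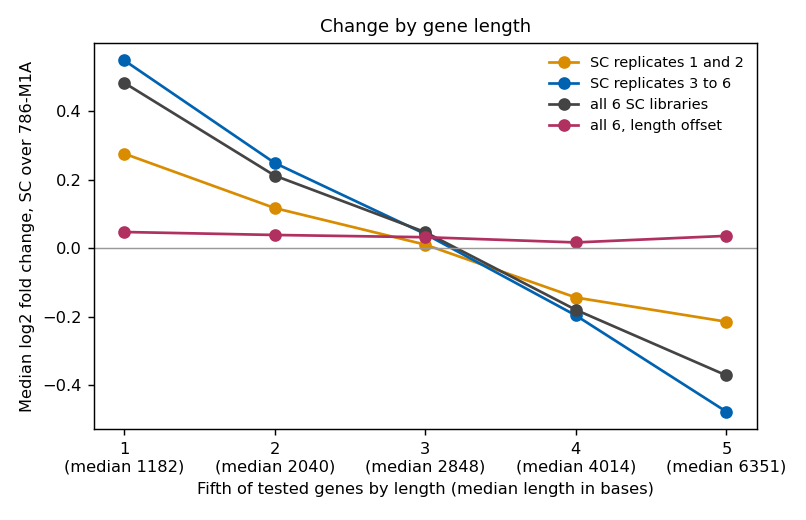
Median log2 fold change of SC over 786-M1A (vertical axis) in quintiles of the tested genes by length (horizontal axis, median length in bases), for each SC set, for all 6 SC libraries and after the length offset. The medians fall from the shortest to the longest genes in every line except the offset one, which stays between 0.02 and 0.05.

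SAPCD1, SATB1, MMP7 and LDLRAD2 led the 12 genes that rose most in both sets, ranked by the smaller of the changes in the 2 sets. MMP7, a matrix metalloproteinase, was at 0.314 and 0.362 CPM in 786-M1A, 6.84 and 7.08 CPM in SC replicates 1 and 2, and 5.58, 6.69, 8.28 and 6.43 CPM in SC replicates 3 to 6. The groups were far apart and the sets level with each other (log2 fold change 4.33 ± 0.24 SE, edgeR adjusted p = 9.7e-05). SATB1, an organiser of chromatin loops, was at 0.272 and 0.226 CPM in 786-M1A and at 12.7, 14.0, 8.53, 7.99, 7.76 and 7.22 CPM in SC replicates 1 to 6. Over all SC libraries it rose by 5.27 ± 0.41 SE on the log2 scale (edgeR adjusted p = 0.000482), and SC replicates 3 to 6 were lower than replicates 1 and 2 (log2 difference −0.76 ± 0.14 SE, edgeR adjusted p = 5.65e-05). DHRS3, an enzyme that reduces retinal to retinol, was at 0.754 and 0.949 CPM in 786-M1A and between 8.01 and 12.3 CPM in all 6 SC libraries. CEACAM19, an adhesion molecule of the carcinoembryonic antigen family, stood at 0.587 and 0.316 CPM against 3.57 to 10.4 CPM in SC. The model of CEACAM19 overlaps PVR and that of SATB1 overlaps TBC1D5, each on the same strand. The part of these neighbours in the reads was not tested. CD300E, a receptor known from myeloid cells, rose from 0.524 and 0.452 CPM to between 2.32 and 8.92 CPM in SC. The parent line 786-O had 28.9 and 28.4 CPM of MMP7, 31.2 and 33.0 CPM of DHRS3 and 4.89 and 4.38 CPM of SATB1, so these genes were not silent there. CD300E was at 0.232 and 0.484 CPM in 786-O, as low as in 786-M1A.

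LDLRAD2, a membrane protein with an LDL receptor class A repeat, rose in steps. It stood at 2.28 and 2.06 CPM in 786-M1A, 45.2 and 35.0 CPM in SC replicates 1 and 2, and 194, 204, 216 and 198 CPM in SC replicates 3 to 6. The log2 fold change was 4.23 in the first set and 6.55 in the second, and it was 1.18 and 1.91 CPM in 786-O. LDLRAD2 overlaps HSPG2 on the other strand, whose mean was 604 CPM in 786-M1A, 589 CPM in the first set and 364 CPM in the second. The sources used here do not say whether reads were counted by strand, so the reads of this pair cannot be told apart. No count of SAPCD1 was seen in 786-M1A and 885 were seen in SC, which is at least 273-fold higher when 3 counts over all 786-M1A reads are taken as the floor. Its reads are shared with the readthrough gene MSH5-SAPCD1, which also rose (log2 fold change 1.91, edgeR adjusted p = 0.00331), so its value is uncertain. FAM133CP, which lies within BICC1, CTGLF12P, LOC441081 and SCXB are pseudogenes or near-copies whose reads RSEM may have divided, and they rose by 3.79, 3.96, 2.61 and 4.28 on the log2 scale. The call of SCXB was lost without 786-M1A replicate 2 (edgeR adjusted p = 0.0536).

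**Figure D3:**
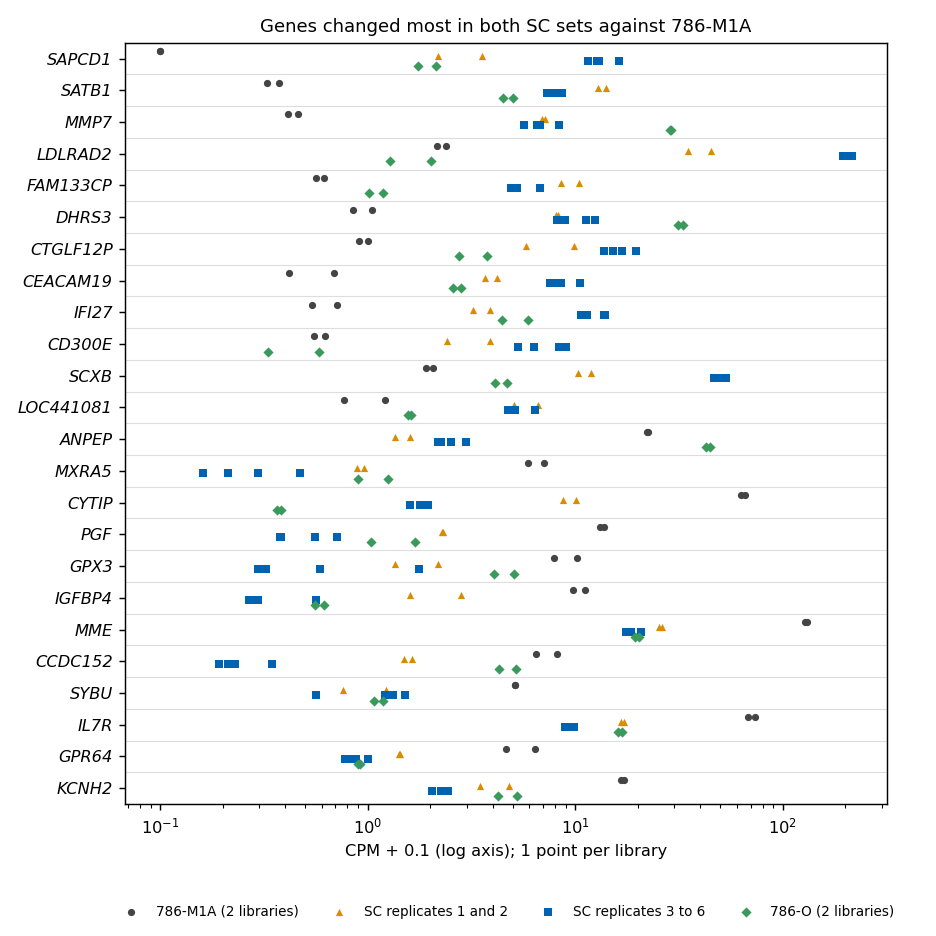
CPM + 0.1 on a log axis for the 12 genes that rose and the 12 that fell most in both SC sets, with 1 point per library and 786-O for scale. No SC library overlaps a 786-M1A library in any row, and for LDLRAD2 the SC 3 to 6 points lie near 200 CPM, above SC replicates 1 and 2.

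ANPEP, MXRA5, CYTIP and PGF led the 12 genes that fell most in both sets. ANPEP, the aminopeptidase N of the tubule brush border, was at 22.1 and 22.2 CPM in 786-M1A and at 1.49, 1.26, 2.15, 2.88, 2.09 and 2.42 CPM in SC replicates 1 to 6 (log2 fold change −3.44 ± 0.23 SE, edgeR adjusted p = 0.000216). MME, the membrane peptidase neprilysin, was at 128.5 and 131 CPM in 786-M1A, 25.1 and 26.2 CPM in SC replicates 1 and 2 and 17.5 to 20.7 CPM in SC replicates 3 to 6. Neither gene had an SC library near the 786-M1A level. IL7R, the receptor of interleukin-7, fell from 68.1 and 73.5 CPM to 17.1 and 16.5 CPM in the first set and 8.80 to 9.81 CPM in the second. CYTIP, an adaptor that binds cytohesins and that earlier work in this line tied to metastasis, fell from 65.5 and 62.6 CPM to 10.0 and 8.60 CPM in SC replicates 1 and 2 and to between 1.5 and 1.86 CPM in SC replicates 3 to 6. The step from the first to the second set was itself called for CYTIP (log2 difference −2.48, edgeR adjusted p = 1.15e-12). PGF, a ligand of the VEGF receptor FLT1, fell from 13.7 and 13.0 CPM to at most 2.20 CPM, and IGFBP4, a carrier of insulin-like growth factors, from 11.1 and 9.67 CPM to at most 2.71 CPM.

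KCNH2, a potassium channel, fell by 2.54 on the log2 scale, SYBU, an adaptor for transport along microtubules, by 2.30, and the adhesion receptor GPR64 by 2.46. MXRA5, a secreted matrix protein, fell by 3.93 and GPX3, a secreted peroxidase, by 3.16. CCDC152 fell by 3.50, a call lost without 786-M1A replicate 2 (edgeR adjusted p = 0.0539), and it overlaps SELENOP on the other strand. In 786-O, MME was at 19.2 and 20.2 CPM and IL7R at 15.96 and 16.8 CPM, near the SC libraries, and CYTIP was at 0.283 and 0.266 CPM, below them. ANPEP was at 42.7 and 44.6 CPM in 786-O, above both other groups.

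CXCR4, a chemokine receptor that earlier work in this line tied to metastasis, had few counts here, with 240 counts in 786-M1A and 100 in SC. Its level was 2.79 and 2.42 CPM in 786-M1A, 1.53 and 1.06 CPM in SC replicates 1 and 2, and 0.614, 0.836, 0.587 and 1.07 CPM in SC replicates 3 to 6. The groups did not overlap, and 786-O had 0.0257 and 0.0484 CPM. CXCR4 fell in both sets, by 0.96 and by 1.72 on the log2 scale. The call over all SC libraries (log2 fold change −1.41, edgeR adjusted p = 0.0083) was lost without either 786-M1A library (edgeR adjusted p = 0.0564 to 0.07).

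The largest falls in absolute level were those of TGFBI, FLNA and FLNC, and the largest rises those of MTRNR2L2, MTRNR2L8 and MIR6723. TGFBI, a secreted matrix protein, fell by the most CPM of all genes tested, from 9857 and 9909 CPM in 786-M1A to 6358 and 6259 CPM in SC replicates 1 and 2 and 2178 to 2252 CPM in SC replicates 3 to 6. FLNA and FLNC, which crosslink actin filaments, fell from 8415 and 8145 CPM to 3236 to 5328 CPM and from 3223 and 3211 CPM to 588 to 1348 CPM. HSPA8, the constitutive HSP70 chaperone, fell from 2638 and 2718 CPM to 1438 and 1382 CPM in the first set and 866 to 953 CPM in the second. In these 4 genes every SC library was below every 786-M1A library and the second set below the first. The elongation factor EEF1A1 fell by 0.44 and the giant scaffold protein AHNAK by 1.04 on the log2 scale. TMSB10, an actin monomer binder, rose from 1418 and 1413 CPM to between 2102 and 3133 CPM, a call lost with the length offset (log2 fold change 0.15, edgeR adjusted p = 0.112). MTRNR2L2, MTRNR2L8 and MTRNR2L9, nuclear copies that resemble mitochondrial 16S ribosomal RNA, rose by 1.91, 1.96 and 1.99. MIR6723, a microRNA gene in a nuclear copy of mitochondrial DNA, rose by 2.95 and IGFN1, a gene of skeletal muscle, by 2.31. Reads of the mitochondrial copies cannot be assigned with certainty. The calls of EEF1A1, MIR6723 and the 3 MTRNR2L genes were lost without either 786-M1A library (edgeR adjusted p = 0.0533 to 0.0979) and that of IGFN1 without 786-M1A replicate 2 (edgeR adjusted p = 0.0503). Those of TGFBI and AHNAK were lost without either 786-M1A library and, for TGFBI, without SC replicates 3, 4 or 5 and, for AHNAK, without SC replicates 3 or 6 (edgeR adjusted p = 0.0503 to 0.155).

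Whether the sets agree was recorded for each of the 334 genes chosen by rule. Of the 286 that were named from the gene lists or in advance and not for their behaviour in the sets, 265 were called in the same direction in both sets, 17 only in SC replicates 3 to 6, and 4 in neither. The 17 include the early factors EGR1 and ATF3, the interferon genes HERC6 and DTX3L, the proteases and inhibitors MMP9 and SERPINB2, and VIM. When SC replicates 1 and 2 were fitted alone with 786-M1A, EGR1 and VIM were called there too. The 4 are HIF1A, CDH1, TRIM28 and the metallothionein MT1F. Nearly all of these genes were chosen because all 6 SC libraries together differed from 786-M1A, which favours agreement, and the 2 contrasts share their controls. Of the 265 genes the sets differed in size at 194, and the change was larger in SC replicates 3 to 6 at 185 of them. Genes taken by rule for agreeing (36) or disagreeing (12) are left out of these counts.

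Some genes lay on opposite sides of 786-M1A in the 2 sets. The 6 per direction given here were chosen for that pattern, so the values are a description and 12 is not the size of the group. Members of the lists did so too, for example 3 of 24 integrin and laminin genes and 3 of 43 interferon-stimulated genes. HABP2, a plasma serine protease, was at 3.31 and 3.53 CPM in 786-M1A, 9.62 and 8.47 CPM in SC replicates 1 and 2, and 0.614, 0.836, 0.978 and 1.01 CPM in SC replicates 3 to 6. SEMA5B, a guidance factor of the semaphorin family, was at 17.9 and 15.96 CPM in 786-M1A, 34.2 and 32.2 CPM in the first set and 3.31 to 5.95 CPM in the second. KMO, an enzyme of tryptophan breakdown, was at 9.32 and 10.3 CPM, 16.8 and 17.3 CPM, and 2.21 to 3.85 CPM in the same order. The kidney cadherin CDH16, the steroid reductase AKR1C3 and the interferon-induced family member IFITM10 showed the same order, high in the first set and low in the second. All 6 genes were highest in 786-O, for example SEMA5B at 43.8 and 40.1 CPM and AKR1C3 at 17.45 and 17.1 CPM.

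The reverse order is described for 6 other genes. CD274, which encodes the immune checkpoint ligand PD-L1, was at 14.1 and 13.6 CPM in 786-M1A, 6.72 and 7.74 CPM in SC replicates 1 and 2, and 22.0, 19.3, 18.8 and 25.1 CPM in SC replicates 3 to 6. The glycine transporter SLC6A9 was at 7.14 and 6.83 CPM, 4.94 and 3.70 CPM, and 9.45 to 11.3 CPM in the same order. ADAMTS6, a secreted protease, was at 5.57 and 4.41 CPM, 2.94 and 3.70 CPM, and 6.06 to 8.68 CPM. BCYRN1, a small cytoplasmic RNA, lay at 16.4 to 20.8 CPM in 786-M1A, 6.81 to 9.79 CPM in the first set and 22.3 to 38.9 CPM in the second, and the length offset takes its change over all SC libraries from 0.31 to −0.86. C18orf32 and POC1B-GALNT4 share reads with readthrough partners that went the other way. C18orf32 was at 24.99 to 36.5 CPM in SC replicates 3 to 6 against 2.12 and 2.58 CPM in the first set, while RPL17-C18orf32 was at 3.62 to 15.3 CPM against 25.3 and 29.2 CPM. POC1B-GALNT4 was at 6.31 to 9.08 CPM in SC replicates 3 to 6 and GALNT4 at 2.39 to 5.67 CPM, against 0 and 0.498 CPM and 11.5 and 14.9 CPM in the first set.

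**Figure D4:**
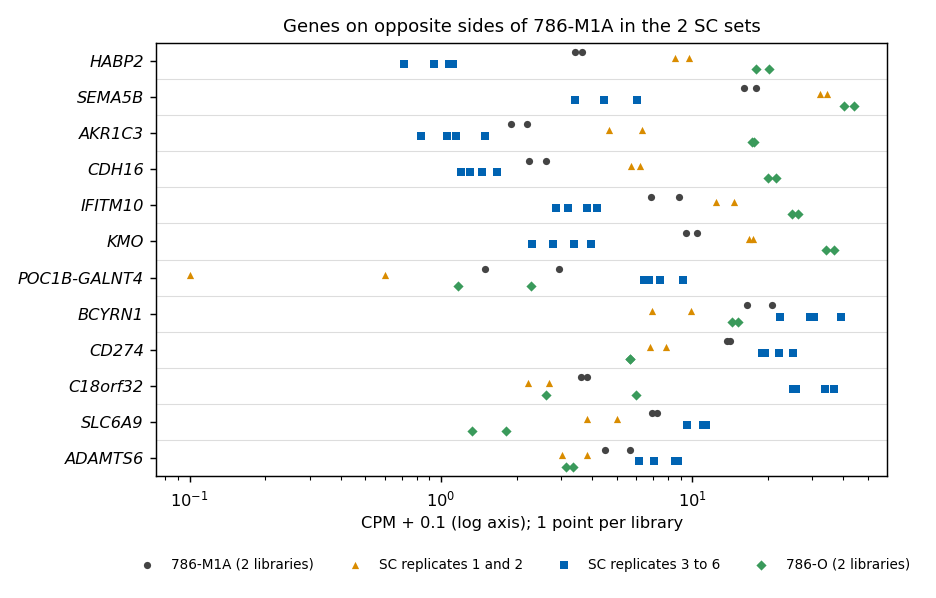
CPM + 0.1 on a log axis for the 12 genes named by rule among those called in opposite directions in the SC sets, with 1 point per library. In the first 6 rows SC replicates 1 and 2 lie right of 786-M1A and SC replicates 3 to 6 left of it, and in the last 6 rows the order is reversed.

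More interferon-stimulated genes rose than fell in both sets. Type I interferon acts through the factor ISGF3, which binds the interferon-stimulated response element, and the genes it induces block viral replication and present antigen. Of 43 members tested, 23 rose and 4 fell in SC, against 27.8% higher and 25.3% lower among all genes, and the median log2 fold change was 0.62, or 0.56 with the length offset. SC replicates 1 and 2 had 26 higher and 4 lower (median 0.73), against 27.2% and 28.5% of all genes. SC replicates 3 to 6 had 28 higher and 11 lower (median 0.50), against 40.1% and 36.6%. OAS2, which makes the activator of RNase L, was at 0.670 and 1.08 CPM in 786-M1A and at 5.14, 3.77, 3.19, 5.67, 5.09 and 5.30 CPM in SC replicates 1 to 6. MX2, a GTPase that restricts retroviruses, was at 0.922 and 1.29 CPM against 3.11 to 5.76 CPM in SC. Both were level in the 2 sets, with log2 fold changes of 2.43 and 2.11 (edgeR adjusted p = 0.00126 and 0.00161). IFI27, a mitochondrial protein used as a readout of interferon, was at 0.440 and 0.610 CPM in 786-M1A, 3.78 and 3.11 CPM in the first set and 10.6 to 13.8 CPM in the second (log2 fold change 4.15, edgeR adjusted p = 0.00327). The members that fell were SAMD9 and its neighbour SAMD9L, which restrict poxviruses, the ubiquitin ligase DTX3L and HERC6. SAMD9L was at 50.3 and 60.9 CPM in 786-M1A, 37.5 and 35.6 CPM in the first set and 30.1 to 33.2 CPM in the second. SAMD9 fell from 74.97 and 78.7 CPM to 55.05 and 56.4 CPM and to between 24.1 and 29.6 CPM. HERC6 and DTX3L were called in SC replicates 3 to 6 and not in the first set, and with the length offset neither was called over all SC libraries (edgeR adjusted p = 0.0637 and 0.412). The calls of SAMD9, HERC6, DTX3L and ISG20 were lost without either 786-M1A library, and that of SAMD9 also without SC replicate 3 and those of HERC6 and DTX3L without any of SC replicates 3 to 6 (edgeR adjusted p = 0.0501 to 0.197).

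The letters of the response element were common in the promoters of this list, among genes that rose and genes that did not. Promoters of RefSeq in GRCh38.p14, from 250 bases before to 50 after the start of a gene, could be matched for 33 of the 43 members. The interferon element, searched on both strands as GAAA, any 2 bases and GAAA, was in 22 of the 33 (66.7%) and in 3.65% of all 27305 promoters of that length. It was in 10 of 17 members that rose, 2 of 4 that fell and 10 of 12 that were not called, and members with it had a lower median change (0.43) than members without it (0.79). The stretches below show 2 members that rose and 1 that fell, since the same letters stand before the start of each, with the motif in capitals. IFI27 holds a match on each strand. They lie 5′ to 3′ on the strand of the gene, at chr14:94110606-94110685 (plus strand, 130 to 51 bases before the start), chr15:88638912-88638991 (plus strand, 104 to 25 bases before it) and chr7:93118071-93118150 (minus strand, 171 to 92 bases before it).
IFI27: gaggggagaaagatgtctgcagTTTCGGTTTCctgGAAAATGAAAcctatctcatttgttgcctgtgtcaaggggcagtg
ISG20: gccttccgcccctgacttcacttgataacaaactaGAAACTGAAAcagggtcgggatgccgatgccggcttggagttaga
SAMD9: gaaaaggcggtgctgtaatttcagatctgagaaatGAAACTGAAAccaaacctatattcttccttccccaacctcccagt
ISG20, an exonuclease for viral RNA, was at 0.147 and 0.294 CPM in 786-M1A and at 0.871, 0.265, 0.920, 1.58, 1.43 and 1.30 CPM in SC replicates 1 to 6, and SC replicate 2 overlapped 786-M1A. A match of letters is a description of the sequence and not a binding site.

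Sensors of foreign nucleic acid and retroviral restriction factors were called about as often as genes at large. Of 28 tested, 9 rose and 7 fell by edgeR, against 27.8% and 25.3% of all genes, with a median of 0.21 (0.14 with the length offset, −0.06 on TPM). The medians of the 2 sets were 0.22 and 0.26. IRF7, the factor that amplifies interferon production, was at 2.28 and 2.46 CPM in 786-M1A and between 4.63 and 7.76 CPM in SC. EIF2AK2, the kinase PKR that senses double-stranded RNA, went the other way, from 92.1 and 103 CPM to between 41.2 and 58.8 CPM. Neither had an overlapping library, and both were called in both sets.

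Chemokines and cytokines were the list with the highest median (1.49, or 1.07 with the length offset), and the median was higher in SC replicates 3 to 6. These secreted proteins draw leukocytes to tissue, and many are targets of NF-kB. Of 22 tested, 8 rose and none fell in SC by edgeR, against 27.8% and 25.3% of all genes. In SC replicates 1 and 2, 6 rose and 1 fell with a median of 0.35, where 27.2% of all genes rose and 28.5% fell. In SC replicates 3 to 6, 18 rose and 3 fell with a median of 1.80, where the shares of all genes were 40.1% and 36.6%. CCL2, which attracts monocytes, was at 5.80 and 7.37 CPM in 786-M1A, 12.9 and 11.2 CPM in SC replicates 1 and 2, and 75.2, 72.6, 74.4 and 68.04 CPM in SC replicates 3 to 6. CCL5, which attracts T cells, rose in both sets, from 2.10 and 2.60 CPM to 10.5 and 12.2 CPM and to between 15.4 and 20.5 CPM. The neutrophil chemokine CXCL2 rose by 3.12 and CCL20 by 4.02 on the log2 scale. The changes were 0.77 and 1.74 in SC replicates 1 and 2 and 3.62 and 4.52 in SC replicates 3 to 6. Neither gene was called when SC replicates 1 and 2 were fitted alone with 786-M1A. CCL20 had only 10 counts in 786-M1A and 169 in SC. The calls of CCL2, CXCL2 and CCL20 over all SC libraries were lost without either 786-M1A library (edgeR adjusted p = 0.0823 to 0.142), whereas that of CCL5 held with any 1 library left out (edgeR adjusted p = 0.000849 in full). Of 18 NF-kB subunits and feedback genes 6 rose and 5 fell, near the shares of all genes (27.8% and 25.3%), and the median was 0.44 (0.29 with the length offset, 0.09 in the first set and 0.58 in the second). NFKBIZ, a nuclear cofactor, rose from 60.2 and 57.6 CPM to between 148 and 194 CPM, and the subunit REL fell from 23.9 and 24.5 CPM to between 7.89 and 15.2 CPM.

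Immediate-early factors, which respond to growth signals and stress within minutes, rose in 12 of 23 cases and fell in 4, against 27.8% and 25.3% of all genes. The median was 0.67 (0.77 with the length offset, 0.40 in the first set and 0.83 in the second). JUND, an AP-1 subunit, was at a mean of 32.9 CPM in 786-M1A, 93.6 CPM in SC replicates 1 and 2 and 264 CPM in SC replicates 3 to 6 (log2 fold change 2.67, edgeR adjusted p = 0.00479). EGR1, a zinc finger factor, was called only in SC replicates 3 to 6 when the sets were separate groups of the same fit. Its mean there was 19.9 CPM, against 2.74 CPM in 786-M1A and 4.27 CPM in the first set. The stress factor IER3 rose by 1.62, while KLF10, FOSL2, KLF4 and SRF fell by 0.42 to 0.98, each call being lost without at least 1 of the 786-M1A libraries (edgeR adjusted p = 0.0514 to 0.131). The call of JUND was lost without 786-M1A replicate 2 (edgeR adjusted p = 0.0593), that of IER3 without either 786-M1A library (edgeR adjusted p = 0.126 to 0.130), and that of EGR1 also without SC replicates 4, 5 or 6 (edgeR adjusted p = 0.0532 to 0.156). Epidermal growth factor ligands and feedback of the ERK pathway had 5 of 19 higher and 4 lower, near the shares of all genes, with a median of 0.12 (0.13 with the length offset, 0.08 in the first set and −0.02 in the second). AREG, a ligand of EGFR, rose by 2.14 and the cyclin CCND1 fell by 1.11 on the log2 scale, the second call being lost without either 786-M1A library (edgeR adjusted p at most 0.0723).

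Genes of the hypoxia response fell more often than they rose. HIF targets include enzymes that crosslink collagen, angiogenic ligands and glycolytic enzymes. Of 29 tested, 15 fell and 4 rose in SC, against 25.3% lower and 27.8% higher among all genes, and the median was −0.61, or −0.49 with the length offset. SC replicates 1 and 2 had 16 lower and 4 higher (median −0.34), against 28.5% and 27.2% of all genes. SC replicates 3 to 6 had 20 lower and 7 higher (median −0.71), against 36.6% and 40.1%. LOX, which crosslinks collagen, was at 30.1 and 32.5 CPM in 786-M1A and at 7.22, 10.1, 4.48, 3.16, 3.85 and 4.12 CPM in SC replicates 1 to 6 (log2 fold change −2.49 ± 0.35 SE, edgeR adjusted p = 0.00167). VEGFA, the main angiogenic ligand of this carcinoma, fell from 512 and 492 CPM to 279 and 292 CPM in the first set and 185 to 229 CPM in the second. In both genes every SC library lay below 786-M1A, and the calls held with any 1 library left out. The 4 members that rose were POU5F1, MXI1, PFKFB4 and DDIT4, with POU5F1 at a mean of 29.5 CPM in 786-M1A, 65.9 CPM in the first set and 92.1 CPM in the second. POU5F1 has near-identical pseudogenes, so its count is uncertain. Glycolytic genes had 12 of 23 lower and 1 higher, against 25.3% and 27.8% of all genes (median −0.49, −0.53 with the length offset, −0.20 in the first set and −0.62 in the second), for example the enolase ENO2 (log2 fold change −0.79, edgeR adjusted p = 0.00127) and the glucose transporter SLC2A1 (−1.04). The SLC2A1 call was lost without either 786-M1A library (edgeR adjusted p = 0.0562 to 0.0564), as was that of PFKFB4 (0.0557 to 0.0702), and that of DDIT4 without 786-M1A replicate 2 (0.0588) or with the length offset (0.0754).

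The core of the hypoxia response, the letters ACGTG on either strand, was in the promoters of 9 of 22 matched members (40.9%) and in 21.6% of all promoters. It was in 5 of 11 members that fell, 1 of 3 that rose and 3 of 8 that were not called. The promoter of LOX holds 4 matches before the start and is shown because LOX fell most. It spans chr5:122078260-122078459 of GRCh38.p14 on the minus strand, the last 200 bases before the start, with the letters of the core in capitals.
LOX: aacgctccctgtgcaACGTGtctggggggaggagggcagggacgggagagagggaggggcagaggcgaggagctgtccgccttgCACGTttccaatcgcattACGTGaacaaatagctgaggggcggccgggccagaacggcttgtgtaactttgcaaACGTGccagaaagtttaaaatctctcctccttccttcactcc

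Among the oxygen sensors themselves, EPAS1 fell and HIF1A did not pass the test. EPAS1 was at 212 CPM in both 786-M1A libraries, 108 and 125 CPM in SC replicates 1 and 2 and 44.1 to 49.3 CPM in SC replicates 3 to 6, with the 3 groups apart. HIF1A was at 7.19 and 7.96 CPM in 786-M1A and between 6.85 and 8.96 CPM in SC (log2 fold change 0.10, edgeR adjusted p = 0.563). HIF3A, an inhibitory HIF subunit, rose from 0.545 and 0.678 CPM to between 1.59 and 2.76 CPM (log2 fold change 1.94, edgeR adjusted p = 0.00186). The hydroxylase EGLN3, a HIF target and a sensor, fell by 1.81, and VHL rose by 0.61. The calls of EPAS1, EGLN3 and VHL were lost without either 786-M1A library, and those of EGLN3 and VHL also without any of SC replicates 3 to 6 (edgeR adjusted p = 0.0515 to 0.148). Of the 14 core genes 4 rose and 6 fell, against 27.8% and 25.3% of all genes, and the median was −0.18 (−0.09 with the length offset, −0.06 in the first set and −0.31 in the second).

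Most genes of sterol and fatty acid synthesis rose. They are driven by the SREBP factors, and their products build cholesterol and unsaturated fat. Of 31 tested, 20 rose and 3 fell in SC, against 27.8% and 25.3% of all genes, and the median was 0.52, or 0.53 with the length offset. SC replicates 1 and 2 had 20 higher and 2 lower (median 0.37), against 27.2% and 28.5%. SC replicates 3 to 6 had 23 higher and 6 lower (median 0.55), against 40.1% and 36.6%. The sterol element, searched as TCAC, any base and CCAC on both strands, was in 1 of 25 matched promoters (4%). It was in 1.15% of all promoters. That promoter was 1 of 16 matched members that rose. SCD, the desaturase that makes oleate, was at 116 and 108 CPM in 786-M1A and at 343, 390, 400, 391, 382 and 341 CPM in SC replicates 1 to 6 (log2 fold change 1.75 ± 0.11 SE, edgeR adjusted p = 0.000141). SREBF1, the SREBP gene of fatty acid synthesis, stepped up from 24.4 and 21.2 CPM to 69.7 and 65.0 CPM and then to between 108 and 119 CPM. INSIG1, a sterol-regulated brake on SREBP, rose by 1.87, a call lost without 786-M1A replicate 2 (edgeR adjusted p = 0.0507). The members that fell were ACLY, ELOVL6 and PMVK, by 0.60, 0.60 and 0.41 on the log2 scale, and PMVK was called only in SC replicates 3 to 6 and lost its call over all SC libraries without either 786-M1A library or any of SC replicates 3 to 6 (edgeR adjusted p at most 0.166).

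Genes of DNA replication and mitosis fell more often than they rose. Of 38 tested, 21 fell and 2 rose, against 25.3% and 27.8% of all genes (median −0.40, −0.44 with the length offset). In SC replicates 1 and 2, 23 were lower (median −0.24), against 28.5% of all genes, and in SC replicates 3 to 6, 30 were lower (median −0.52), against 36.6%. RRM1, a subunit of ribonucleotide reductase, was at 221 and 235 CPM in 786-M1A, 122 and 132 CPM in the first set and 95.1 to 105 CPM in the second. MCM2, part of the replicative helicase, was at 189 and 179 CPM, 114 and 105 CPM, and 73.7 to 81.5 CPM in the same order (log2 fold change −1.05, edgeR adjusted p = 0.00256). AURKB, a mitotic kinase, and the ligase LIG1 rose by 0.93 and 0.44, calls lost without 786-M1A replicate 2 and, for AURKB, without replicate 1 too (edgeR adjusted p = 0.0581 to 0.093). CDKN1A, the p21 inhibitor of cyclin-dependent kinases, was at 283 and 280 CPM in 786-M1A, 243 and 242 CPM in SC replicates 1 and 2, and 85.5, 86.3, 95.1 and 81.7 CPM in SC replicates 3 to 6. It fell in both sets, by 0.20 and by 1.68, and missed the threshold over all SC libraries (log2 fold change −1.003, edgeR adjusted p = 0.0933).

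Protein folding genes were called lower more often than higher, over all SC libraries for under 50% of each list. Of 22 chaperones of the endoplasmic reticulum and genes of the unfolded protein response, 10 fell and 1 rose, with a median of −0.27 (−0.37 with the length offset, −0.19 in the first set and −0.30 in the second). Of 18 heat shock genes 8 fell and 3 rose, with a median of −0.35 (−0.29 with the length offset, −0.19 and −0.45 in the sets). Among all genes 25.3% fell and 27.8% rose. In SC replicates 1 and 2, 10 of the 22 genes fell and 3 rose, against 28.5% and 27.2% of all genes. Of the 18 heat shock genes 10 fell and 4 rose there. In SC replicates 3 to 6, 18 of the 22 fell and 3 rose, against 36.6% and 40.1% of all genes. Of the heat shock genes 11 fell and 5 rose in that set. EDEM1, which sends misfolded glycoproteins to degradation, fell from 95.0 and 101 CPM to 53.2 and 57.2 CPM and to between 39.2 and 44.9 CPM (log2 fold change −1.05, edgeR adjusted p = 0.00134). CANX, the lectin chaperone calnexin, fell from 1649 and 1790 CPM to between 874 and 1113 CPM. Of 28 genes of the ATF4 and amino acid response 11 rose, 6 fell and 11 were not called, with a median of 0.39 (0.35 with the length offset, 0.10 in the first set and 0.46 in the second). ATF4, its transcription factor, was at 235 and 225 CPM in 786-M1A, 379 and 378 CPM in the first set and 682 to 728 CPM in the second. CBS, which makes cystathionine, rose from 5.66 and 5.65 CPM to 13.3 and 12.1 CPM and to between 24.3 and 27.9 CPM. The amino acid carriers SLC7A5 and SLC1A4 of the same list fell by 0.88 and 0.62. The ATF4 call was lost without either 786-M1A library (edgeR adjusted p = 0.0556 to 0.0705), and those of EDEM1, CANX, CBS, SLC7A5 and SLC1A4 held with any 1 library left out.

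**Figure D5:**
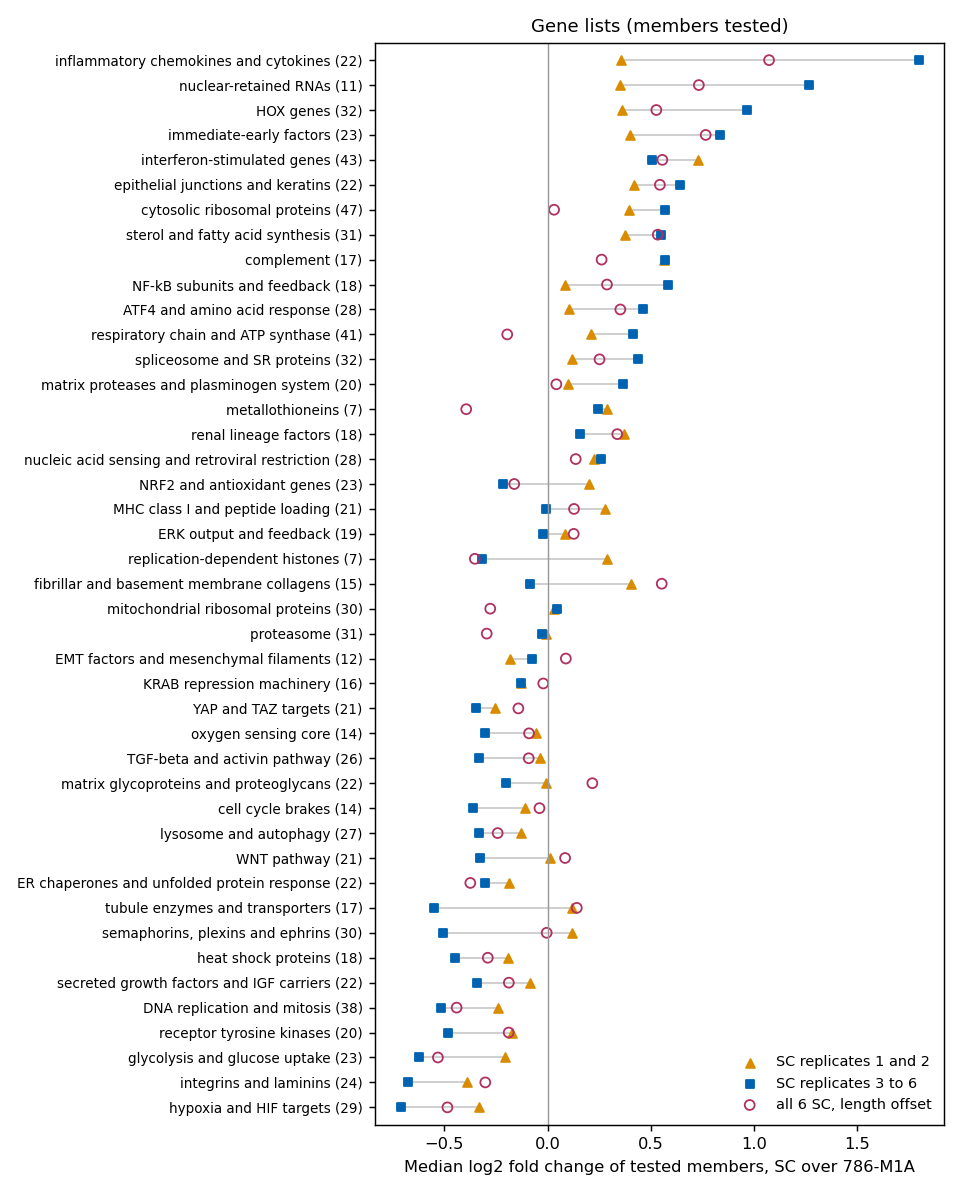
Median log2 fold change of SC over 786-M1A (horizontal axis) of the tested members of the gene lists shown (vertical axis, number tested in brackets), for SC replicates 1 and 2, SC replicates 3 to 6, and all 6 SC libraries with the length offset. The hypoxia, glycolysis and replication lists lie left of 0 at all 3 points and the sterol, interferon and chemokine lists right of it, while the ribosomal and respiratory lists move toward or past 0 with the offset.

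Most HOX genes, which set position along the body axis, rose. Of 32 tested, 19 rose and 1 fell, against 27.8% and 25.3% of all genes (median 0.77, 0.53 with the length offset, 0.36 in the first set and 0.96 in the second). HOXB5 was at 2.33 and 2.03 CPM in 786-M1A, 8.42 and 7.61 CPM in SC replicates 1 and 2, and 16.5, 20.6, 18.7 and 18.8 CPM in SC replicates 3 to 6 (log2 fold change 2.80, edgeR adjusted p = 0.00257). HOXD9 and HOXB3 rose by 2.02 and 1.91 and HOXD8 fell by 0.52, calls lost without either 786-M1A library (edgeR adjusted p at most 0.096). Of 18 renal lineage factors 6 rose, 2 fell and 10 were not called. Their share of rises was near that of all genes, and the median was 0.22 (0.34 with the length offset, 0.37 in the first set, 0.16 in the second and −0.07 on TPM). PAX2, a factor of nephron formation, was at 4.19 and 3.96 CPM in 786-M1A and 11.5 to 17.0 CPM in SC, and LHX1, its partner in the early kidney, was at 16.2 and 14.2 CPM against 29.01 to 35.5 CPM. Neither differed between the sets by test (edgeR adjusted p = 0.0581 and 0.758). PAX8, a lineage factor of renal tubule cells, stepped up from 178 and 163 CPM to 240 and 236 CPM and to between 380 and 431 CPM, a call lost without either 786-M1A library (edgeR adjusted p = 0.0677 to 0.0971). WT1 and HNF4G fell by 0.83 and 0.65 on the log2 scale. In 786-O, PAX2 was at 24.7 and 24.97 CPM and LHX1 at 35.4 and 35.3 CPM.

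Adhesion genes changed without a common direction. CDH2, the cadherin of mesenchymal cells, fell from 629 and 660 CPM to 297 and 331 CPM and to between 211 and 254 CPM. CDH1, the epithelial cadherin, was at 1.15 and 1.06 CPM in 786-M1A and 1.104 to 2.14 CPM in SC, and VIM at 8210 and 8190 CPM against 5917 to 7643 CPM. Neither passed the test over all SC libraries (edgeR adjusted p = 0.0978 and 0.0903), and with the length offset both did (edgeR adjusted p = 0.0305 and 0.0315). VIM was also called with DESeq2, without a filter, by limma on TPM, with the replicate block and with either SC set alone. CDH1 was not called in any of these other fits. Of 22 junction and keratin genes 8 rose and 4 fell, against 27.8% and 25.3% of all genes (median 0.53, 0.54 with the offset, 0.42 and 0.64 in the sets). Of 24 integrin and laminin genes 12 fell and 3 rose (median −0.60, −0.39 and −0.68 in the sets), and the offset left 7 lower and 4 higher (median −0.30). ITGA6, a laminin receptor subunit, fell by 1.34 on the log2 scale (edgeR adjusted p = 0.00224).

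Matrix genes were divided as well. FN1, fibronectin, rose from 1827 and 2019 CPM to between 2755 and 2993 CPM in the 6 SC libraries. NID1, which links laminin to collagen, fell from 4.17 and 4.81 CPM to 0.954 and 0.463 CPM and to at most 0.0929 CPM in the second set. LTBP1, which stores latent TGF-beta in the matrix, fell from 37.55 and 38.5 CPM to 10.2 and 9.195 CPM and to between 2.48 and 3.59 CPM. All 3 were called with any 1 library left out. The 22 matrix glycoproteins had 5 higher and 7 lower, against 27.8% and 25.3% of all genes, and a median of −0.20 (−0.01 and −0.20 in the sets), which the length offset turned to 0.22. The 15 collagens tested had 5 higher and 4 lower, near the shares of all genes, and their median was 0.10, or 0.55 with the offset, and −0.02 on TPM. The sets differed in sign, with medians of 0.40 in the first and −0.09 in the second. Among proteases, MMP13, a collagenase, rose from 2.89 and 2.35 CPM to 11.3 and 11.8 CPM and to between 7.98 and 10.2 CPM, and F3, tissue factor, fell from 378 and 394 CPM to 136 and 127 CPM and to between 74.3 and 80.8 CPM.

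Receptor tyrosine kinases fell more often than they rose, with 8 of 20 lower and 3 higher, against 25.3% and 27.8% of all genes (median −0.43, −0.19 with the length offset, −0.17 and −0.48 in the sets). MET, the receptor of hepatocyte growth factor and a driver of renal carcinoma, was at 1537 and 1642 CPM in 786-M1A, 612 and 674 CPM in SC replicates 1 and 2, and 336, 329, 304 and 323 CPM in SC replicates 3 to 6 (log2 fold change −1.87 ± 0.31 SE, edgeR adjusted p = 0.00259). EGFR was at 327 and 337 CPM, 141 and 153 CPM, and 34.1 to 41.0 CPM in the same order, and AXL fell by 1.49. The 3 groups were apart for MET and EGFR. The calls of EGFR and AXL were lost without either 786-M1A library (edgeR adjusted p = 0.0623 to 0.0868). Semaphorins, plexins and ephrins, families of guidance genes, had 11 of 30 higher and 8 lower, against 27.8% and 25.3% of all genes. Their median was −0.34, and with the length offset −0.005. The sets differed in sign. SC replicates 1 and 2 had 12 higher and 9 lower (median 0.12), against 27.2% and 28.5% of all genes. SC replicates 3 to 6 had 11 higher and 17 lower (median −0.51), against 40.1% and 36.6%. SEMA3B, a secreted semaphorin, rose from 7.96 and 6.60 CPM to between 18.85 and 31.4 CPM, and PLXNA2, a semaphorin receptor, fell from 29.9 and 29.4 CPM to between 4.91 and 9.53 CPM.

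For several lists of short, abundant genes the calls changed with the length offset. The offset takes out any shift that genes of like length share, whatever its source, and the source was not tested. Of 47 cytosolic ribosomal proteins 35 rose and none fell by edgeR, against 27.8% and 25.3% of all genes (median 0.53, 0.39 and 0.57 in the sets), and with the length offset 11 rose and 8 fell (median 0.03). Of 41 genes of the respiratory chain and ATP synthase 21 rose and 5 fell (median 0.36, 0.21 and 0.41 in the sets), and with the offset 13 rose and 16 fell (median −0.20). The 31 proteasome genes went from 7 higher and 5 lower to 1 higher and 14 lower, with medians of −0.02 and −0.30, and the 30 mitochondrial ribosomal proteins from a median of 0.05 to −0.28. Without the offset the medians of the sets were −0.01 and −0.03 for the proteasome and 0.03 and 0.04 for the mitochondrial ribosome. RPS15 of the small ribosomal subunit rose by 0.995 without the offset and by 0.288 with it. COX6B1 of cytochrome oxidase rose by 1.09 and 0.43. NDUFS1, a longer gene of complex I, fell by 0.93 and 0.84. Of 7 metallothionein and zinc genes MT1F and MT2A rose and the zinc exporter SLC30A1 fell, with a list median of 0.30 (−0.39 with the offset, 0.29 and 0.24 in the sets), the last call being lost without either 786-M1A library (edgeR adjusted p = 0.0602 to 0.0678). MT2A had a log2 fold change of 0.91 without and 0.12 with the offset, where its call was lost (edgeR adjusted p = 0.269), and MT1F one of 0.50 and −0.25, its call being lost in 7 of the 8 fits that leave out a library (edgeR adjusted p at most 0.225). Across MHC class I and peptide loading, 7 of 21 rose and 3 fell, where 27.8% of all genes rose and 25.3% fell. With the offset 2 rose and 2 fell, and the median was 0.13 with and without it. SC replicates 1 and 2 had 13 higher and 4 lower (median 0.28), against 27.2% and 28.5% of all genes. SC replicates 3 to 6 had 8 higher and 8 lower (median −0.01), against 40.1% and 36.6%.

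RNAs that stay in the nucleus or host small RNAs rose in 9 of 11 cases and fell in none by edgeR, against 27.8% and 25.3% of all genes. The median was 1.04 (0.73 with the length offset, 0.35 and 1.26 in the sets). MALAT1, a nuclear RNA of speckles, was at 912 and 863 CPM in 786-M1A, 1682 and 1729 CPM in the first set and 1021 to 1522 CPM in the second, one of the genes higher in SC replicates 1 and 2. SNHG1 and GAS5, hosts of small nucleolar RNAs, rose by 1.36 and 1.14, most in SC replicates 3 to 6. All 3 calls were lost without either 786-M1A library (edgeR adjusted p = 0.0958 to 0.137), and that of GAS5 with the length offset (edgeR adjusted p = 0.132).

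The cofactors that a KRAB repressor recruits were measured as well. TRIM28 was at 386 and 354 CPM in 786-M1A and 320 to 367 CPM in SC, which overlapped (log2 fold change −0.11, edgeR adjusted p = 0.297). Of 16 genes of this machinery 3 rose and 6 fell, against 27.8% and 25.3% of all genes (median −0.12, −0.02 with the length offset, −0.13 in each set). MPHOSPH8, a reader of repressive histone marks in the HUSH complex, rose by 0.73 (edgeR adjusted p = 0.000904), and FAM208A, the TASOR subunit of the same complex, fell by 0.87, a call lost without either 786-M1A library (edgeR adjusted p = 0.0513 to 0.0762).

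Genes that mark the difference between the parent line and its derivative served as a check of identity. PTPRS and WLS were at 20 CPM or more in both 786-O libraries and at most 0.1 CPM in both 786-M1A libraries, and in SC they were at most 0.186 CPM. At a looser level of 5 CPM in 786-O, chosen after the data were seen, 13 genes qualified, and in SC 7 to 11 of them stayed at or under 0.1 CPM and the highest value was 1.76 CPM. No gene was in the reverse class at either level.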

How the data were processed

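The labels describe poly(A) RNA sequenced with a stranded kit after 15 PCR cycles. Per the submitters' processing notes, the authors used Bowtie2, RSEM and hg19; versions and the strand setting were not stated there. The deposited expected counts are the authors' RSEM estimates per gene, 27.2% to 31.2% of them not whole, and the deposited TPM values divide these by gene length and depth. After rounding, these counts went into edgeR 4.0.16 (quasi-likelihood, robust, TMM, minimum count 10, Benjamini-Hochberg, adjusted p under 0.05) in R 4.3.3, as 6 SC against 2 786-M1A libraries and, in a second fit, with the SC sets as separate groups. TMM factors of the printed CPM came from all 22 libraries. The length offset came from a lowess (span 0.4) per library on the deposited gene length. Alternatives used DESeq2 1.42.0 and limma 3.58.1. On simulated data the test recovered 73.1%, 86.6% and 95.5% of genes changed 1.5, 2 and 4 times, with 7 false calls among 177. The simulation gave all 6 SC libraries the same mean for a gene, with no difference between the sets. These rates therefore need not hold for the real fit of all SC libraries.

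Named genes were, per direction, the 12 with the largest change shared by both sets at 5 CPM or more without overlap, 6 called oppositely, 6 with the largest CPM difference, up to 4 of each list with at least 3 calls, and 13 fixed genes. Members and the 50 lists were chosen with earlier results of these data known. Overlaps of gene models came from GENCODE 29. Depths differed, so low counts in SC are less precise. Only replicate numbers 1 and 2 occur in both groups, and the difference of replicate 1 minus replicate 2 correlated at 0.133 between them. Some genes of the lists and 1 list are not reported here.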

Additional observations from a re-analysis of the deposited data

Results flagged for a closer look

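The 12 genes named for opposite calls in the SC sets differ between the sets by a test of the difference itself (edgeR, 3-group fit). They were chosen for this pattern. The log2 fold change over 786-M1A in SC replicates 3 to 6 minus that in SC replicates 1 and 2 was −3.386 for HABP2, −2.92 for SEMA5B, −2.402 for AKR1C3, −2.148 for CDH16, −2.002 for IFITM10 and −2.495 for KMO. It was 4.592 for POC1B-GALNT4, 1.83 for BCYRN1, 1.578 for CD274, 3.718 for C18orf32, 1.277 for SLC6A9 and 1.195 for ADAMTS6. POC1B-GALNT4 and C18orf32 share reads with readthrough genes, so their values are uncertain. No SC library stood apart from the other 5 by Dixon's test in any of the 60 genes examined. Where the 2 sets differ, the gap between them widens the range, so this test could hardly flag a single library there.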

How the results depend on the processing

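The number of genes called stayed within 1.5 times 7832 with DESeq2 (8702), limma on TPM (7496), RLE size factors (7834), the length offset (7270), a minimum count of 50 (6824), no filter (7667), all 7 groups in 1 fit (9374) and either SC set alone (7605 and 11575). Against a log2 fold change of 1 in place of 0, edgeR called 141 genes over all SC libraries, 307 in SC replicates 1 and 2 and 2670 in SC replicates 3 to 6. With 1 library left out the count was 1973 to 9078 over all SC libraries, 6366 to 8221 for the first set and 10126 to 11592 for the second. The replicate block, which only numbers 1 and 2 can inform, gave 8848 calls. No pairing beyond the number can be checked. Of 316 called named genes, 115 were called with any 1 library left out, 155 lost the call only without a 786-M1A library and 46 also or only without an SC library.

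Among the 12 genes named as opposite in the sets, the log2 fold change often turned sign. They were chosen for opposite calls, so a turn with 1 set alone was fixed by that choice. With the replicate block it did so for ADAMTS6 (−0.5889), BCYRN1 (−1.145), C18orf32 (−0.6214), CD274 (−0.9351) and IFITM10 (0.8096). The same held for KMO (0.8117), POC1B-GALNT4 (−2.988), SEMA5B (0.9863) and SLC6A9 (−0.6726). With SC replicates 1 and 2 alone it did so for BCYRN1 (−1.12), CD274 (−0.9347), IFITM10 (0.8126), KMO (0.8079), POC1B-GALNT4 (−2.833), SEMA5B (0.9877) and SLC6A9 (−0.6584), and, with neither value past the threshold, for ADAMTS6 (−0.5879) and C18orf32 (−0.6209), and with SC replicates 3 to 6 alone for AKR1C3 (−0.9937), CDH16 (−0.8709) and HABP2 (−2.021). The replicate block draws only on replicates numbered 1 and 2, so it repeats the comparison of the first set. These turns are thus no measure of how the calls depend on the processing. The length offset turned BAX (−0.0675), MT1F (−0.2477), PSMB4 (−0.1597), TCEB2 (−0.002441) and ZEB2 (0.04721); the cause was not tested.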

Other observations

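Complement genes, which tag cells for clearance, were not described above. Of 17 tested, 6 rose and 3 fell in SC by edgeR, against 27.8% and 25.3% of all genes, with a median log2 fold change of 0.44 (0.26 with the length offset, 0.56 and 0.57 in the sets). CFI, the protease that inactivates C3b, rose by 2.57 and C3 by 1.46, calls lost without either 786-M1A library (edgeR adjusted p = 0.093 to 0.116). Lysosome and autophagy genes had 5 of 27 higher and 9 lower, against 27.8% and 25.3% of all genes (median −0.23, −0.24 with the length offset, −0.13 in SC replicates 1 and 2 and −0.33 in SC replicates 3 to 6). ATP6V1A, a subunit of the proton pump, fell by 1.01 and GABARAPL1, an autophagosome protein, rose by 1.05 on the log2 scale, and both calls held with any 1 library left out. Splicing factors had 14 of 32 higher and 7 lower (median 0.33, 0.25 with the length offset, 0.12 and 0.44 in the sets), with SF3A1 of the U2 particle lower by 0.77.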
